A study of Mus musculus with 2 samples.

Results

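The miR-200 family of miRNAs was examined in the small RNA of testicular extracellular vesicles (EVs). The family holds miR-141, miR-200a, miR-200b, miR-200c and miR-429. Entries were taken by name from the mature and hairpin miRNA entries of the deposited tables, both arms included. The rule for taking them uses no measured value, although the members were chosen with earlier results of these data known. It gave 5 of the 525 known miRNA entries and of the 27065 entries in all. All 5 were 3p arms, 1 for each miRNA, so the 5p arms are not analysed here. The EVs came from testes of adult C57/BL6 mice, from the supernatant of dissociated seminiferous tubules, and had been exposed to proteinase K and RNase A, enzymes that degrade unprotected protein and RNA, before the RNA was extracted. There were 2 libraries of this single condition, and no untreated, whole-testis or blank library was analysed here, so no test between conditions was made. Whether separate animals stand behind the 2 libraries is not stated in the paper or the labels, and their spread may be technical. EVs of all cells of the dissociated tissue were sequenced together. The paper proposes Leydig cells and macrophages, which lie in the interstitial space, among their sources. A smaller number of vesicles from a cell type and less of an RNA per vesicle therefore cannot be told apart.

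Both libraries were deep, with 21970654 listed counts in library 1 and 24829208 in library 2. All levels below are CPM, that is, counts of an entry for every 1000000 counts listed in that library, averaged over the libraries with their SD. Known miRNA made up 3.14% of the listed counts in library 1 and 2.25% in library 2. The tables list only entries with at least 1 count in both libraries. Intervals are exact 95% intervals (Poisson for levels, Clopper-Pearson for shares) and hold for counting error alone, because reads copied by PCR do not stand for separate molecules.

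The miR-200 family is known for keeping epithelial cells epithelial. Its members repress the mRNAs of the transcription factors ZEB1 and ZEB2, which in turn repress E-cadherin and the miR-200 genes themselves, so that the miRNAs and the factors hold each other in check. In mice, miR-200b and miR-429 act in the pituitary and are needed for ovulation. As for other miRNAs, the bases that pair first with a target are the seed, taken here as bases 2 to 8, and miRNAs with the same seed can share targets.

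The mature sequences of the 5 listed arms are shown because the members fall into groups by their seed. Sequences are from RefSeq (GRCm38.p6), 5′ to 3′, with the seed in capitals. The 5 names of the family all matched, as did 440 of the 537 known miRNA names in the tables.
miR-429-3p: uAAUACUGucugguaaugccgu
miR-200b-3p: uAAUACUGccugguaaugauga
miR-200c-3p: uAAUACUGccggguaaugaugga
miR-141-3p: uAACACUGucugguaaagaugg
miR-200a-3p: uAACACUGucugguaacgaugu
The first 3 share the seed AAUACUG and the other 2 share AACACUG. Counted from 1 at the 5′ end of the miRNA, the seeds differ by C4U from the miR-141 group to the miR-429 group. No other mature miRNA among the 1679 in the RefSeq table holds either seed.

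The members of a seed group are close relatives. Over their 22 shared positions, miR-141-3p and miR-200a-3p differ by A17C and G22U and are identical over the first 16 bases. The pair of miR-200b-3p and miR-200c-3p differs by U11G and A22G and is identical over the first 10 bases. In the same seed group, miR-429-3p stands further apart, with 4 differences from miR-200b-3p and 5 from miR-200c-3p. A tag that ends early could match both miR-141-3p and miR-200a-3p. How such tags were counted is not stated, and the split between these members was not tested.

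The family comes from 2 gene clusters, which do not follow the seeds. All 5 genes lie on the minus strand at the same positions in RefSeq and in GENCODE M21. Mir200b (chr4:156055681-156055750), Mir200a (chr4:156054896-156054985) and Mir429 (chr4:156053905-156053987) lie within 1846 bp of chromosome 4, inside an intron of the protein-coding gene Ttll10 on the same strand. There, Mir429 also overlaps an exon of the noncoding transcript Gm13648. Mir200c (chr6:124718322-124718390) and Mir141 (chr6:124717914-124717985) lie within 477 bp of chromosome 6, inside the antisense transcript Gm15884. Mir141 also overlaps an exon of Gm29008, and the nearest protein-coding gene to both is Phb2 on the plus strand. Each cluster thus holds members with both seeds. The deposited positions of predicted miRNA and piRNA lie far from both clusters, the nearest being novel_pir42240 at 337 kb from the chromosome 4 cluster, although no source names the build of those positions.

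The hairpins of Mir429 and Mir141 are shown because they carry the most abundant member of each cluster. They are from the same RefSeq table, 5′ to 3′, with the listed 3p arm in capitals.
Mir429: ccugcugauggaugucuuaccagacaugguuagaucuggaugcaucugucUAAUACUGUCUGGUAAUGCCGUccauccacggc
Mir141: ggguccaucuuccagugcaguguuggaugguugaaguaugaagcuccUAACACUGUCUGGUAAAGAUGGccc
In both, the listed arm lies on the 3′ side of the hairpin. Among the 361 known miRNAs with an entry of their own for a named arm, 115 had entries for both arms, 131 for the 5p arm only and 115 (31.9%) for the 3p arm only, as did the 5 members of the family.

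Testicular EVs carried all 5 members. Summed over the 5, library 1 gave 1876 counts, which is 85.4 CPM (95% interval 81.6 to 89.3), and library 2 gave 1525, which is 61.4 CPM (58.4 to 64.6). The average was 73.4 ± 16.9 CPM (SD, n = 2). The level per listed count was therefore higher in library 1, beyond counting error. As a share of known miRNA counts, the family had 0.272% (0.260 to 0.285) in library 1 and 0.273% (0.259 to 0.287) in library 2, which differ by less than counting error. By the family names that the tables give, where this family is called mir-8 after its Drosophila relative, it ranked 43 of 185 by mean CPM.

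The most abundant member was mmu-miR-429, whose 3p arm made up close to 50.0% of the family. Its 890 (library 1) and 763 (library 2) counts gave 40.5 and 30.7 CPM, averaging 35.6 ± 6.91 CPM (SD, n = 2). This was 47.4% (95% interval 45.2 to 49.7) and 50.0% (47.5 to 52.6) of family counts in libraries 1 and 2. It ranked 84 of the 525 known miRNA entries by mean CPM. It was 2.48 times as high as miR-141-3p, the next member, in library 1 and 2.13 times in library 2.

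The highest member of the other seed group was mmu-miR-141, from the chromosome 6 cluster. Its 3p arm had the same 359 counts in each library, which is 16.3 CPM for library 1 and 14.5 CPM for library 2 and averages 15.4 ± 1.33 CPM (SD, n = 2). By ratio of CPM, its libraries were the closest together of the 5 members, and their counting intervals overlap. This does not hold on counts per known miRNA count. There its log2 ratio of library 2 over library 1 was 0.30, against 0.08 for miR-429-3p and -0.04 for miR-200a-3p. The 3p arm of miR-141 held 19.1% (95% interval 17.4 to 21.0) of family counts in library 1 and 23.5% (21.4 to 25.8) in library 2. That share differed beyond counting error.

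For mmu-miR-200b, the 2 libraries were the furthest apart by ratio. The 287 counts of its 3p arm in library 1 gave 13.1 CPM (95% interval 11.6 to 14.7), and the 143 in library 2 gave 5.76 CPM (4.85 to 6.78), with an average of 9.41 ± 5.16 CPM (SD, n = 2). Its share of family counts was 15.3% (13.7 to 17.0) in library 1 and 9.38% (7.96 to 11.0) in library 2, so its place within the family also differed beyond counting error. The deposited tables type miR-200b-3p and miR-141-3p as hairpin entries and the other 3 as mature entries, although all 5 names are of mature arms.

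The neighbour of miR-200b on chromosome 4 is mmu-miR-200a. Its 3p arm was counted 224 times in library 1 and 177 times in library 2, which gave 10.2 and 7.13 CPM and an average of 8.66 ± 2.17 CPM (SD, n = 2). The lowest member was mmu-miR-200c, which shares the seed AAUACUG with miR-200b and miR-429. Its 116 (library 1) and 83 (library 2) counts gave 5.28 and 3.34 CPM, averaging 4.31 ± 1.37 CPM. The shares of these members differed between the libraries by less than counting error, at 11.9% and 11.6% of family counts for miR-200a-3p and 6.18% and 5.44% for miR-200c-3p in libraries 1 and 2.

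**Figure D1:**
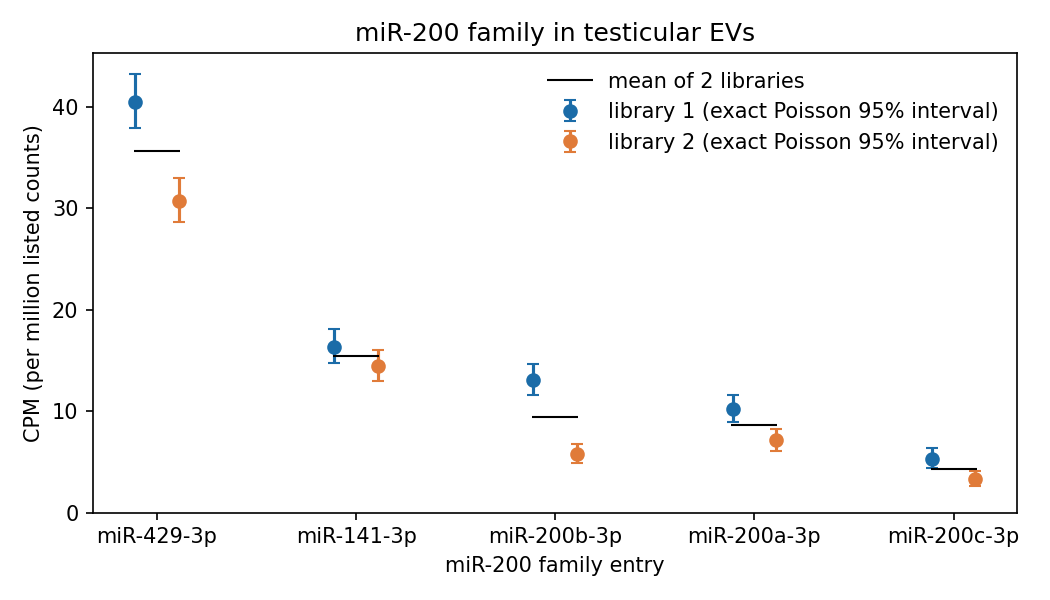
Level of the 5 members of the miR-200 family, listed from left to right by mean CPM. Points are the libraries in CPM with exact Poisson 95% intervals (counting error only), and black bars are the means of the 2 libraries. The points of miR-429-3p, at 40.5 and 30.7 CPM, stand above all others, and the libraries of miR-200b-3p (13.1 and 5.76 CPM) lie on both sides of those of miR-200a-3p (10.2 and 7.13 CPM).

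By mean CPM the order was miR-429-3p, miR-141-3p, miR-200b-3p, miR-200a-3p and miR-200c-3p. In this order, neighbours had no overlap of their library values, with the exception of the step from miR-200b-3p to miR-200a-3p. In library 1, miR-200b-3p was 1.28 times as high as miR-200a-3p, and in library 2 it was 0.808 times as high, so these neighbours do not differ beyond the spread of the libraries. The step from miR-141-3p to miR-200b-3p was 1.25 times in library 1 and 2.51 times in library 2.

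By seed, the AAUACUG group (miR-429, miR-200b and miR-200c) held the larger part of the family. It had 58.9 CPM (library 1) and 39.8 CPM (library 2), a mean of 49.3 ± 13.4 CPM (SD, n = 2). The AACACUG group (miR-141 and miR-200a) had 26.5 and 21.6 CPM, a mean of 24.1 ± 3.50 CPM. The first group made up 68.9% (95% interval 66.8 to 71.0) of family counts in library 1 and 64.9% (62.4 to 67.3) in library 2, a mean of 66.9% ± 2.88. Each seed group and each gene cluster holds 1 entry typed hairpin, miR-200b-3p or miR-141-3p. Together these entries made up 34.4% of family counts in library 1 and 32.9% in library 2. The shares by seed and by cluster pool both types, depend on that pooling, and were not recomputed with mature entries only. The family entries typed mature had 1230 counts in library 1 and 1023 in library 2. Among them, the AACACUG group is miR-200a-3p alone, with 224 and 177 counts. The chromosome 6 cluster is miR-200c-3p alone, with 116 and 83 counts.

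By gene, the chromosome 4 cluster (Mir200b, Mir200a and Mir429) gave 74.7% (95% interval 72.6 to 76.6) of family counts in library 1 and 71.0% (68.7 to 73.3) in library 2, a mean of 72.8% ± 2.59 (SD, n = 2). The chromosome 6 cluster (Mir200c and Mir141) gave the rest, with 21.6 CPM (library 1) and 17.8 CPM (library 2). The members of a cluster were at unequal levels. In the chromosome 4 cluster, miR-429-3p was the highest in both libraries, and in the chromosome 6 cluster miR-141-3p was higher than miR-200c-3p in both.

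**Figure D2:**
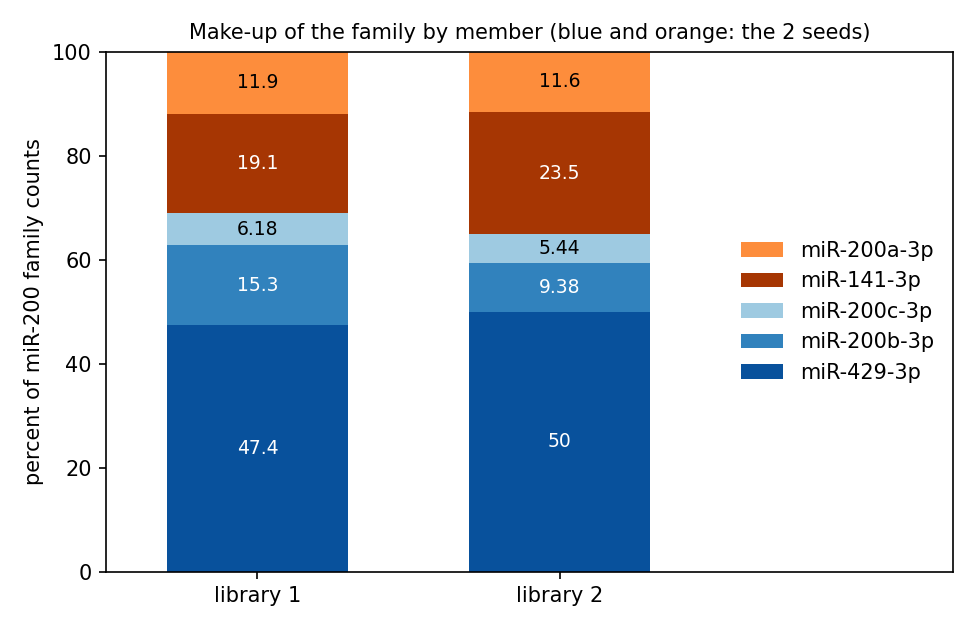
Share of each member in the miR-200 family counts (percent, y axis) in each of the 2 libraries. Blue shades are members with the seed AAUACUG and orange shades are members with AACACUG, and the numbers in the bars are percent. The blue part takes 68.9% in library 1 and 64.9% in library 2, and the part of miR-200b-3p is 15.3% in library 1 and 9.38% in library 2.

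All 5 members had a higher CPM in library 1, and only miR-200b-3p was over 2-fold apart. Its log2 ratio of library 2 over library 1 was -1.18 (exact conditional 95% interval -1.48 to -0.89). The others had -0.66 for miR-200c-3p, -0.52 for miR-200a-3p, -0.40 for miR-429-3p and -0.18 for miR-141-3p, the last with an interval that includes 0 (-0.39 to 0.04). Of the 433 known miRNA entries whose mean count was 10 or more, 35.1% were over 2-fold apart, as were 33.7% of the 23876 entries of any kind with that minimum, so 1 of 5 is not above the background. Of the 433 known miRNA entries, 337 (77.8%) had a higher CPM in library 1, and of the 23876 entries of any kind 10014 (41.9%) did. The median of the 5 members was -0.52, against -0.45 for the 433 known miRNA entries and 0.20 for the 23876 entries. On counts per known miRNA count in place of CPM, the log2 ratio of miR-141-3p was 0.30 and that of miR-429-3p was 0.08, so their direction turned, while miR-200b-3p had -0.70 and no member was over 2-fold apart. Over the same 433 entries, the common dispersion estimated by edgeR puts the coefficient of variation of the libraries at 62.2% on top of counting noise. That estimate was scaled by listed counts alone. It therefore includes the shift shared by known miRNA entries and entries with log2 ratios as low as -14.2.

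**Figure D3:**
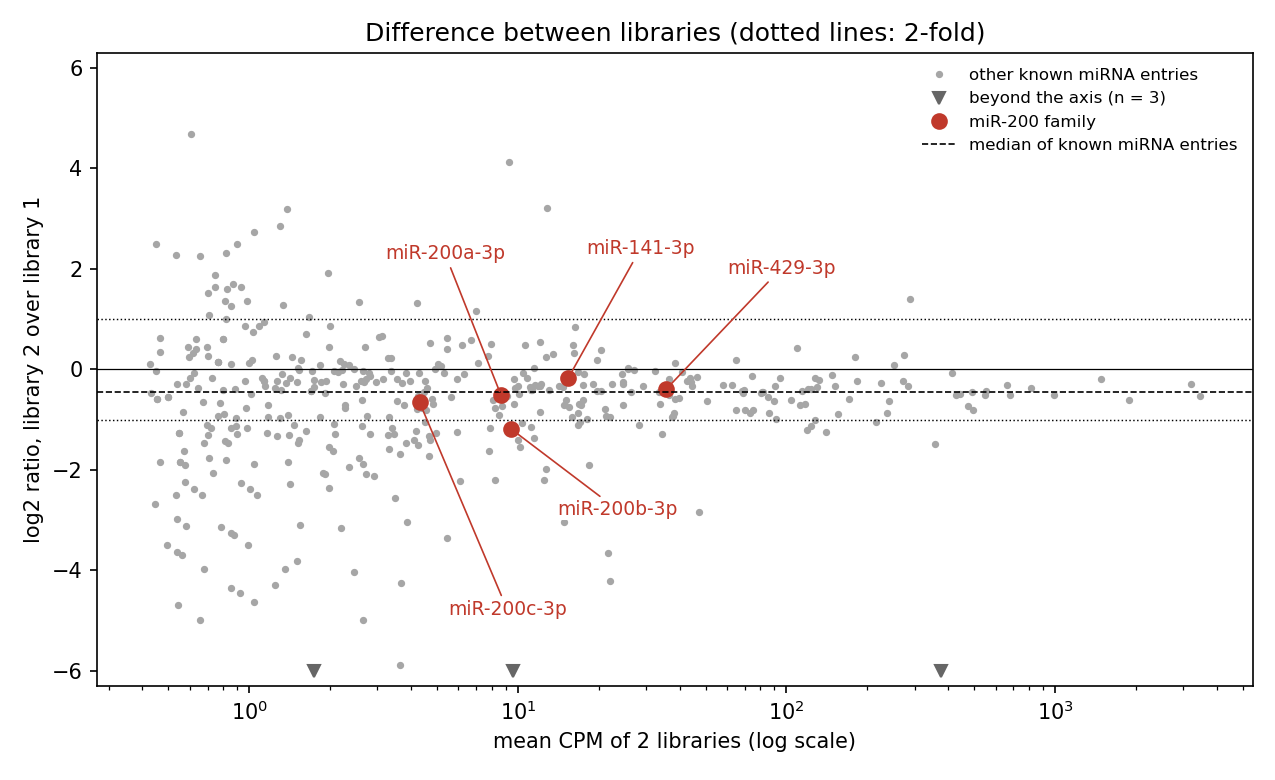
Log2 ratio of library 2 over library 1 in CPM (y axis) against the mean CPM of the 2 libraries (x axis, log scale) for the 433 known miRNA entries whose mean count was 10 or more. Red points are the 5 members of the miR-200 family, grey points the other entries, triangles the 3 entries below the axis, the dashed line the median of -0.45 and dotted lines a 2-fold difference. The family lies among the other entries, with miR-200b-3p at -1.18 just past the 2-fold line.

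The same family was also counted in a separate class. In the authors' order of databases, miRBase came before Rfam, and tags given to an Rfam family of miRNA precursors are listed under that family. The mir-8/mir-141/mir-200 entry ranked 4 of the 90 precursor entries by mean CPM. Its 2702 counts in library 1 gave 123 CPM (95% interval 118 to 128) and its 1137 in library 2 gave 45.8 CPM (43.2 to 48.5), averaging 84.4 ± 54.6 CPM (SD, n = 2). Its log2 ratio of library 2 over library 1 was -1.43. Of the 86 precursor entries whose mean count was 10 or more, 48.8% were over 2-fold apart in either direction and 29.1% had a lower log2 ratio than this entry, and their median was -0.82.

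Set against the 5 members in sum, the precursor entry had 1.44 times their counts in library 1 and 0.746 times in library 2. By name, 55 families could be matched between the Rfam precursor entries and the known miRNA entries, each with a mean count of 10 or more in both classes. The median ratio of precursor to known miRNA counts was 0.272 in library 1 and 0.260 in library 2. The miR-200 family ranked 9 of 55 by this ratio in library 1 and 13 in library 2. The ratio exceeded 1 for 12 of the 55 families in library 1, this family among them, and for 8 in library 2, without it. Which part of a precursor these tags come from, and whether they hold the 5p arms, was not tested.

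**Figure D4:**
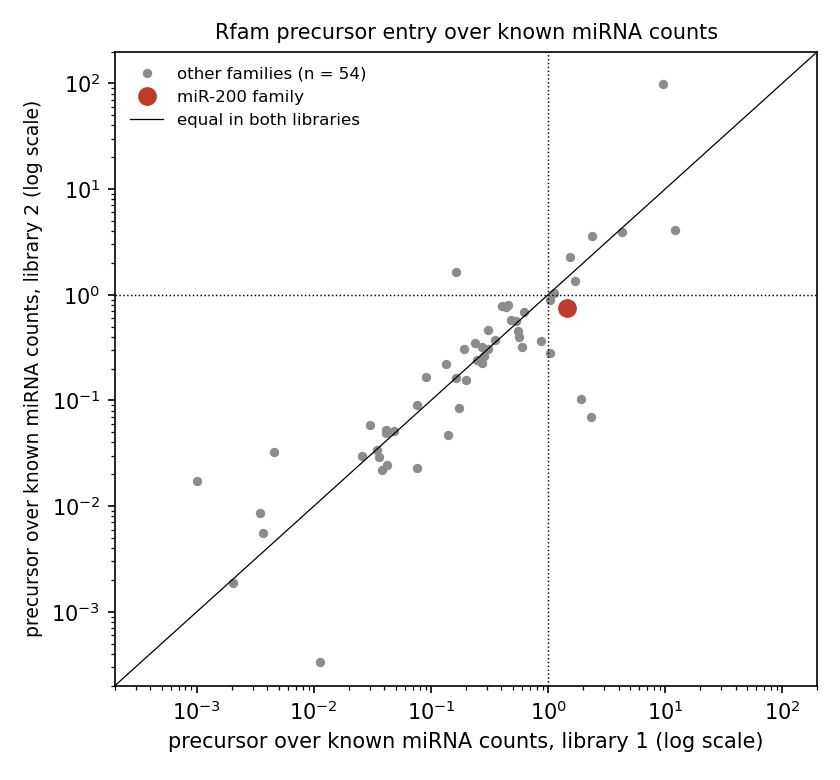
Counts of the Rfam precursor entry divided by the counts of the known miRNA entries of the same family, in library 1 (x axis) and library 2 (y axis), both on log scales, for 55 families matched by name. Dotted lines mark equal counts of precursor and known miRNA. The miR-200 family, in red, lies at 1.44 in library 1 and 0.746 in library 2, above the medians of 0.272 and 0.260.

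The level of the family was set beside miRNAs known from other epithelia. Each of the 5 members reached 10 counts or more in each library. The ratios below compare counts summed over each list, and the lists differ in their miRNAs and number of entries. By mean share, miR-429-3p alone held 48.7% of the family sum. The family, at 73.4 CPM, was 2.64 times in library 1 and 2.61 times in library 2 as high as miRNAs of stratified epithelium (miR-203, miR-205 and miR-31). Of these, miR-203-3p, which restrains the growth of skin progenitors, had 12.8 CPM (library 1) and 10.3 CPM (library 2), and miR-31-5p had 10.8 and 7.49 CPM. Defining for stratified epithelium, miR-205-5p was counted 34 times in library 1 and 4 times in library 2. The family was 3.90 and 3.83 times as high as the miR-183 cluster of sensory epithelia, in which miR-96-5p had 11.1 and 5.92 CPM and miR-182-5p 4.69 and 6.24 CPM in libraries 1 and 2.

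Against miRNAs of gut and kidney epithelium, the family was 1.31 times as high in library 1 and 2.32 times in library 2. Of these, miR-194-5p had 48.8 CPM (library 1) and 20.1 CPM (library 2), and miR-192-5p had 16.5 and 6.36 CPM, while miR-215 is not analysed here. Both were over 2-fold apart between the libraries in CPM, as was miR-200b-3p of the family. So were 35.1% of the 433 known miRNA entries whose mean count was 10 or more. In sum, the list had a log2 ratio of library 2 over library 1 of -1.31, against -0.48 for the family. Below the list of endocrine epithelium, the family had 0.462 and 0.473 times its counts in libraries 1 and 2. In that list miR-7a-5p had 101.4 and 69.6 CPM, and miR-375-3p, known from pancreatic islets, had 78.5 and 58.5 CPM. The list of multiciliated epithelium, whose members are also made by germ cells, was far higher than the family, at 957 CPM (library 1) and 987 CPM (library 2). It was led by miR-449a-5p with 642 and 451 CPM and miR-34c-3p with 158 and 416 CPM in libraries 1 and 2.

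Markers of other cell types that EVs of the testis could hold were measured in the same libraries. The miR-200 family had 0.133 times the counts of miRNAs of mesenchyme and smooth muscle in each library. That list was led by miR-143-3p, with 504 CPM (library 1) and 352 CPM (library 2), and miR-145a-5p, with 77.8 and 70.5 CPM. Blood cell miRNAs had 766 and 449 CPM in sum, led by the red cell miRNA miR-451a at 629 and 357 CPM and by miR-150-5p at 89.4 and 50.9 CPM. The miRNA of endothelium, miR-126a-3p, had 82.7 and 47.5 CPM, and its 5p arm 3.19 and 2.09 CPM. For the gonadal soma, miR-202-5p had 248 and 301 CPM, and miR-202-3p had 166 and 71.9 CPM. The family had 0.994 and 1.24 times the counts of both miR-126a arms in libraries 1 and 2, and was below the lists of mesenchyme, blood cells and gonadal soma in both. The cells that released these RNAs were not tested.

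**Figure D5:**
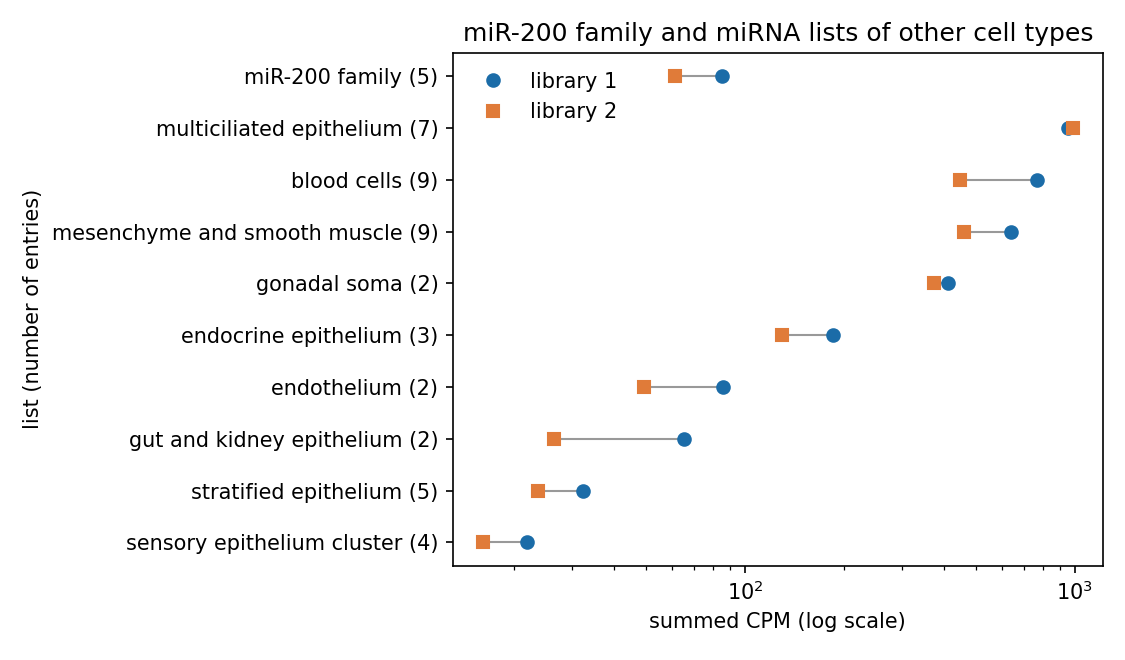
Summed CPM (x axis, log scale) of the miR-200 family and of 9 lists of miRNAs of other cell types, in library 1 (circles) and library 2 (squares), with the number of entries of each list in parentheses. The miR-200 family, at 85.4 and 61.4 CPM, lies above the lists of stratified, sensory and gut and kidney epithelium. It lies below those of multiciliated and endocrine epithelium, blood cells, mesenchyme and gonadal soma. The list of endothelium, at 85.9 and 49.6 CPM, is close to the family in library 1 and below it in library 2.

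Of the known miRNA entries outside the family, those with the level most like that of miR-429-3p were miR-30a-5p, miR-30e-3p, miR-324-3p and miR-93-5p. Likeness was the Euclidean distance of log2 CPM over the 2 libraries, at 0.09 for miR-30a-5p, 0.12 for miR-30e-3p, 0.16 for miR-324-3p and 0.19 for miR-93-5p. In libraries 1 and 2, miR-429-3p had 40.5 and 30.7 CPM, against 43.0 and 30.2 CPM for miR-30a-5p. With 2 libraries, this measure describes a like level and no more.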

How the data were processed

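Testicular EV small RNA was read on the BGISEQ-500 in 2 libraries. By their methods, the authors discarded reads of low quality and used Bowtie2 and cmsearch to place the remainder on the genome and in databases of small RNA, with 1 class per tag and miRBase taken first. Software versions and the build are not stated in the paper or labels. For every entry the authors deposited a whole-number count, which is not normalized, and a TPM. The deposited TPM are scaled to 1000000 tags of a total above the listed counts and are not corrected for length, since count over TPM was constant to within 0.0123% over entries of at least 1000 counts. The listed counts are 93.7% of that total in library 1 and 94.9% in library 2.

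CPM, shares and intervals were computed from the counts with pandas 2.3.3, NumPy 2.4.6 and SciPy 1.17.1. Scaling factors and dispersion came from edgeR 4.0.16 and DESeq2 1.42.0 in R 4.3.3. The parts tested on simulated data were the dispersion estimate and the call of entries over 2-fold apart. The simulated dispersions were below those estimated for these libraries. Figures were drawn with matplotlib 3.10.9. Entries named are all members, the Rfam entry of the family, the 2 highest of each other list, miRNAs with a family seed, and the 4 nearest in level to the highest member. Outside this rule, and after their values were seen, miR-205-5p and the nearest predicted piRNA, novel_pir42240, are named. The members and lists were chosen with earlier results of these data known. Alternatives were other scalings and denominators, count minimums, pooled counts, mature entries only and each library left out. No 5p arm of a member is in the entries used, so arm shares per member were not computed.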

Additional observations from a re-analysis of the deposited data

How the results depend on the processing

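No paired analysis was possible because both libraries belong to the same group. Apart from leaving out a library, 53 values were recomputed. Of these, 42 stayed within the SD of the libraries (for log2 ratios, within the counting interval) and none reversed a difference over 2-fold. Part of the 42 could not move. Pooled counts always lie between the 2 libraries, and a minimum of 10 counts removes no member from the family level or the seed and cluster shares. Among the members, only miR-200b-3p was over 2-fold apart in CPM, so little could reverse. With mature entries only, the family level was 48.6 CPM, since 2 of its 5 entries are typed hairpin. Its mature entries made up 0.331% of the known miRNA counts typed mature. With at least 10 counts in both libraries, the share of the family in known miRNA counts was 0.277%, since fewer other entries were counted. On counts per known miRNA count, 0 members were over 2-fold apart in place of 1, since library 2 holds less known miRNA. The other 7 that moved are log2 ratios of single members. TMM moved the median of all entries by over 0.1, to 0.01, and that of known miRNA entries to -0.64, with miR-429-3p at -0.58. Without replicate 1 or 2, the family had 61.4 or 85.4 CPM. Depth limits miR-200c-3p most, at 83 counts in library 2.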
